A study of Homo sapiens with 4 samples.

Results

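Cadherins are calcium-dependent adhesion proteins. The 10 genes listed here are cadherin superfamily genes, other than protocadherins, on chromosomes 1 to 5: the classical type II cadherins CDH6, CDH9, CDH10, CDH12 and CDH18, the giant cadherins FAT1, FAT4 and DCHS2, and the seven-pass cadherins CELSR2 and CELSR3. Members were taken as features of the array that the platform annotates with exactly 1 gene symbol, which gave 9 features for 9 of the 10 genes, of 13493 features in the table. The feature that carries CELSR3 is also annotated to the microRNA gene MIR4793, so CELSR3 has no feature of its own here.

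RNA of SK-N-SH, an established human neuroblastoma cell line, was labelled and hybridised to Affymetrix Human Transcriptome Array 2.0 chips, which read whole transcripts. TCDD (2,3,7,8-tetrachlorodibenzo-p-dioxin), a persistent pollutant and ligand of the aryl hydrocarbon receptor (AhR), was given at 1e-10 M for 24 h to the cells of 2 arrays, and cells of 2 control arrays had the solvent dimethyl sulfoxide (DMSO). Titles number the arrays of each group as biological replicates without naming cultures, so p-values measure the spread between these arrays, which may be technical. All cells were of a single line, and RNA was measured in bulk, so fewer cells of a type and less RNA per cell cannot be told apart.

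Classical cadherins bind a cadherin of a neighbouring cell through their outermost extracellular repeat, and their cytoplasmic tails bind beta-catenin and p120-type catenins, which link them to alpha-catenin and actin. Type II cadherins are expressed in combinations by groups of neurons and neural crest cells. FAT and Dachsous (DCHS) cadherins bind each other across cell borders, and signal to planar cell polarity and, as shown best in Drosophila, to the Hippo pathway. CELSR proteins combine cadherin repeats with an adhesion G protein-coupled receptor domain, belong to the core of planar cell polarity, and guide axon tracts in the mouse.

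Promoter windows of 300 bases, from 250 before to 50 after an annotated start, were available from RefSeq (GRCh38.p14) for 8 of the 10 genes, all but CDH6 and FAT4, with 13 windows in all. A selection of 5 is shown because these differ widely in base composition and include those with the most matches to the core bound by AhR with its partner ARNT. That core was searched as GCGTG on either strand (CACGC when read on the other strand), and matches are in capitals.
CDH10 (chr5:24644929-24645228, minus strand): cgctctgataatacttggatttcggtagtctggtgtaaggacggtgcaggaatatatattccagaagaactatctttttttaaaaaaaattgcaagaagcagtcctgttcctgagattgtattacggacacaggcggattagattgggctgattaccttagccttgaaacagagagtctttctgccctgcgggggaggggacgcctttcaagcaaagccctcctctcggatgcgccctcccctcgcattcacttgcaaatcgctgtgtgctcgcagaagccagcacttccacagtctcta
CDH9 (chr5:27038537-27038836, minus strand): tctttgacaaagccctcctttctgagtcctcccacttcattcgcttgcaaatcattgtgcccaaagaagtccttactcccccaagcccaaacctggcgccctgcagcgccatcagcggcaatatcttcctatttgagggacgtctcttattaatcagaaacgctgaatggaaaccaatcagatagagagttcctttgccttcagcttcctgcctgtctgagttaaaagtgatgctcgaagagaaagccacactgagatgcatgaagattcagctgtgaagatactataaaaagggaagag
CDH12 (chr5:22212720-22213019, minus strand): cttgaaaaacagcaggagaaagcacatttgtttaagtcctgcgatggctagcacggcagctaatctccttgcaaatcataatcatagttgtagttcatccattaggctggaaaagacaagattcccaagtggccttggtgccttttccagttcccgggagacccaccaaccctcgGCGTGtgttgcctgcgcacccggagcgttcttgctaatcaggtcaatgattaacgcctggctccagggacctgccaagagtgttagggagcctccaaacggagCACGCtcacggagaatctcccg
FAT1 (chr4:186723807-186724106, minus strand): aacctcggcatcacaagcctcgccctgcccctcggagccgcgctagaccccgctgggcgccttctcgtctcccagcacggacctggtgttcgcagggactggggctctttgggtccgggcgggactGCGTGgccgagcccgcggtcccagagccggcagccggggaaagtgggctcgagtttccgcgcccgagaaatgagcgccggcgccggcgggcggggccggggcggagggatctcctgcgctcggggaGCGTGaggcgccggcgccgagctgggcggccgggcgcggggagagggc
CELSR2 (chr1:109249289-109249588, plus strand): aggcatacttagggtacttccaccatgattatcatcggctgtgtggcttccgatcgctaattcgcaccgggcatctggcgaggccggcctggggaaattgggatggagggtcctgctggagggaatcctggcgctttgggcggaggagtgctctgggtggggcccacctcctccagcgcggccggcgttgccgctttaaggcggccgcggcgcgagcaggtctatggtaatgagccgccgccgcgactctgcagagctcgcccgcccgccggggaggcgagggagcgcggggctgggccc
The CDH10 and CDH9 windows hold 48.3% and 46.7% G and C and 0 matches, and the CELSR2 window 68.0% and 0 matches. The CDH12 window shown, at 52.3% G and C, holds 2 matches, 1 in each orientation. The FAT1 window, at 76.0%, holds 2 matches that read GCGTG along the strand of the gene.

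Over the members, 4 of 13 windows held at least 1 match, against 36.5% of all 35116 windows in the table. They were 2 of the 3 windows of CDH12, 1 of the 2 of FAT1 and the single window of DCHS2. The 8 windows of the type II genes CDH9, CDH10, CDH12 and CDH18 held 34.0% to 64.7% G and C with 1 to 18 CpG pairs, and the 5 windows of CELSR2, CELSR3, DCHS2 and FAT1 held 67.0% to 77.3% with 25 to 41 CpG pairs. The median of all windows was 58.7% G and C with 14 CpG pairs. A match in such a window is a run of letters and no measured binding.

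The type II genes also share a place in the genome. In the order of RefSeq genes on chromosome 5, CDH18, CDH12, CDH10, CDH9 and CDH6 follow one another with 0 or 1 protein-coding gene between neighbours. PRDM9, a histone methyltransferase of meiosis, lies between CDH12 and CDH10.

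None of the 9 cadherin features passed the test of TCDD against DMSO, a moderated test fitted with limma across all features and called at a Benjamini-Hochberg adjusted p under 0.05. The count was 0 of 9, where 17.4% of all features were called, and 11.1% of the 5227 protein-coding features with 1 symbol. At an unadjusted limma p under 0.05 there were 4 of 9 (CDH6, CDH9 and CDH10 lower in TCDD, FAT4 higher), near the share of all features, 39.5% in either direction, 16.7% lower and 22.8% higher. The 2 TCDD arrays lay outside the range of the 2 DMSO arrays for 7 of 9 features, 4 below and 3 above, where 71.7% of all features did so, 30.9% below and 40.7% above. At an unadjusted p under 0.05 with a change of at least 1.5-fold there were 0 of 9 members and 1.67% of all features. The median change of the members was -0.068 on the log2 scale, and that of all features 0.023. With 2 arrays a group, an exact permutation test of a single feature cannot go below p = 0.333, so the fit across features carries every test given here.

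**Figure D1:**
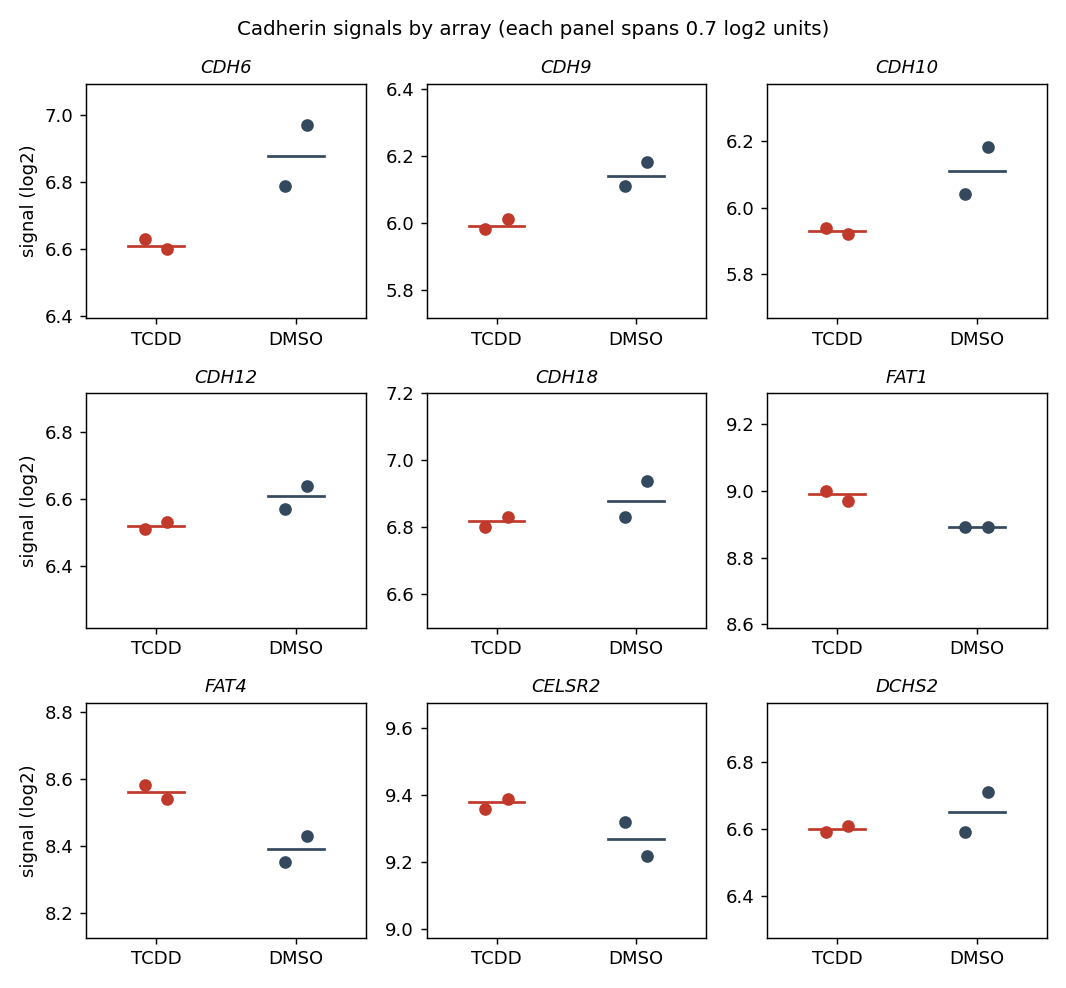
Signal (log2) of the 9 cadherin features on each array, TCDD arrays at left and DMSO arrays at right of each panel, with a line at the mean of the 2 arrays. Every panel spans the same 0.7 log2 units around its own centre. CDH6 shows the widest separation, with 6.63 and 6.60 in TCDD and 6.79 and 6.97 in DMSO, and CDH18 and DCHS2 overlap.

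CDH6, the type II cadherin also called K-cadherin, known from kidney and from neural crest, read 6.63 and 6.60 on the TCDD arrays, against 6.79 and 6.97 on the DMSO arrays (log2 signal). Both TCDD arrays lay below both DMSO arrays, by at least 0.160, a gap close to the 0.183 between the DMSO arrays themselves. The difference of -0.27 (SE 0.072, 95% interval -0.44 to -0.094, limma adjusted p = 0.0510) was the largest among the members and fell just outside the threshold. It amounts to a signal 1.20-fold lower in TCDD. The difference was called when the arrays were centred on their medians (-0.26, adjusted p = 0.0418) and when only features with 1 symbol entered the fit (-0.27, adjusted p = 0.0264). A replicate block also gave a call (adjusted p = 0.00415). It was not called with array weights (-0.27, adjusted p = 0.0506), quantile normalization (-0.21, adjusted p = 0.0641) or cyclic loess normalization (-0.20, adjusted p = 0.0644). With 1 array left out the difference ran from -0.36 (without DMSO replicate 1) to -0.18 (without DMSO replicate 2).

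CDH10, a type II cadherin of the brain, read 5.94 and 5.92 on the TCDD arrays, against 6.04 and 6.18 on the DMSO arrays. CDH9, which in the mouse acts at synapses of the hippocampus, read 5.98 and 6.01 in TCDD, against 6.11 and 6.18 in DMSO. For both genes both TCDD arrays lay below both DMSO arrays. The gap was 0.102 for CDH10 and 0.100 for CDH9, and the DMSO arrays were 0.139 and 0.0709 apart. The differences were -0.18 for CDH10 (SE 0.063, limma adjusted p = 0.0925) and -0.15 for CDH9 (SE 0.054, limma adjusted p = 0.0930), neither past the threshold. Neither was called in any alternative that kept every array. With 1 array left out the difference ran from -0.25 to -0.11 for CDH10 and from -0.19 to -0.12 for CDH9. Both were largest without DMSO replicate 1 and smallest without DMSO replicate 2.

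CDH12, also known as brain cadherin, read 6.51 and 6.53 in TCDD, against 6.57 and 6.64 in DMSO, with groups that did not overlap but lay only 0.0461 apart. Its difference was -0.087 (SE 0.053, limma adjusted p = 0.257), and its 95% interval ran between -0.22 and 0.041. CDH18, a further type II cadherin of the nervous system, read 6.80 and 6.83 in TCDD, against 6.83 and 6.94 in DMSO. Its groups overlapped, and the difference of -0.068 (SE 0.059, limma adjusted p = 0.414) did not pass. Its interval ran between -0.21 and 0.074, so a fall of the size seen in CDH9 or CDH10 lies within it.

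All 5 type II cadherins thus had a lower mean in TCDD, with a median difference of -0.15, and 0 of 5 passed the test. In each of the 5, and in DCHS2 as well, the highest array was DMSO replicate 2. How often that array was the highest over all features was not computed. Over all 9 cadherin features DMSO replicate 2 lay farther from the TCDD mean than DMSO replicate 1 in 8, FAT4 being the exception, where 68.3% of all features did so. Interquartile ranges over all features were 2.21 and 2.20 log2 units on the TCDD arrays, against 2.13 on DMSO replicate 1 and 2.00 on DMSO replicate 2, the narrowest.

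The remaining members are the giant and seven-pass cadherins. FAT4, the receptor of the Dachsous ligand DCHS1 in mammals, read 8.58 and 8.54 on the TCDD arrays, against 8.35 and 8.43 on the DMSO arrays. Both TCDD arrays lay above both DMSO arrays, by at least 0.112, which exceeds the 0.0772 between the DMSO arrays. The difference was 0.17 (SE 0.055, 95% interval 0.037 to 0.30, limma adjusted p = 0.0764), a signal 1.13-fold higher in TCDD that did not pass over all features. Among 14 alternatives it was called only when features with 1 symbol alone entered the fit (adjusted p = 0.0423). In that fit 1799 of 6647 features were called. With 1 array left out the difference of FAT4 ran from 0.13 to 0.21.

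FAT1, a giant cadherin that acts on actin at cell edges and is mutated in several cancers, read 9.00 and 8.97 in TCDD, against 8.89 and 8.89 in DMSO. The DMSO arrays were 0.00645 apart, closer than for any other member, and both TCDD arrays lay above them. The difference of 0.095 (SE 0.050, 95% interval -0.026 to 0.22, limma adjusted p = 0.203) did not pass. The SE of FAT1 draws on the spread of all features, since 2 arrays a group give 2 residual degrees of freedom against 4.27 prior ones.

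CELSR2, a seven-pass cadherin of neurons and ciliated ependymal cells, read 9.36 and 9.39 in TCDD, against 9.32 and 9.22 in DMSO. The groups did not overlap, and the nearest arrays of the 2 groups lay 0.0447 apart. Its difference was 0.11 (SE 0.056, 95% interval -0.031 to 0.24, limma adjusted p = 0.208). The feature that CELSR3 shares with MIR4793 read 9.68 and 9.69 in TCDD, against 9.58 and 9.49 in DMSO, a difference of 0.15 (SE 0.056, limma adjusted p = 0.110). What part of that signal comes from either gene was not tested, and it enters none of the counts of members.

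DCHS2, a relative of the FAT4 ligand DCHS1, read 6.59 and 6.61 in TCDD, against 6.59 and 6.71 in DMSO. The groups overlapped and the difference was -0.046 (SE 0.061, 95% interval -0.19 to 0.10, limma adjusted p = 0.587). It was 0.016 without DMSO replicate 2, and its direction also turned under quantile and cyclic loess normalization.

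**Figure D2:**
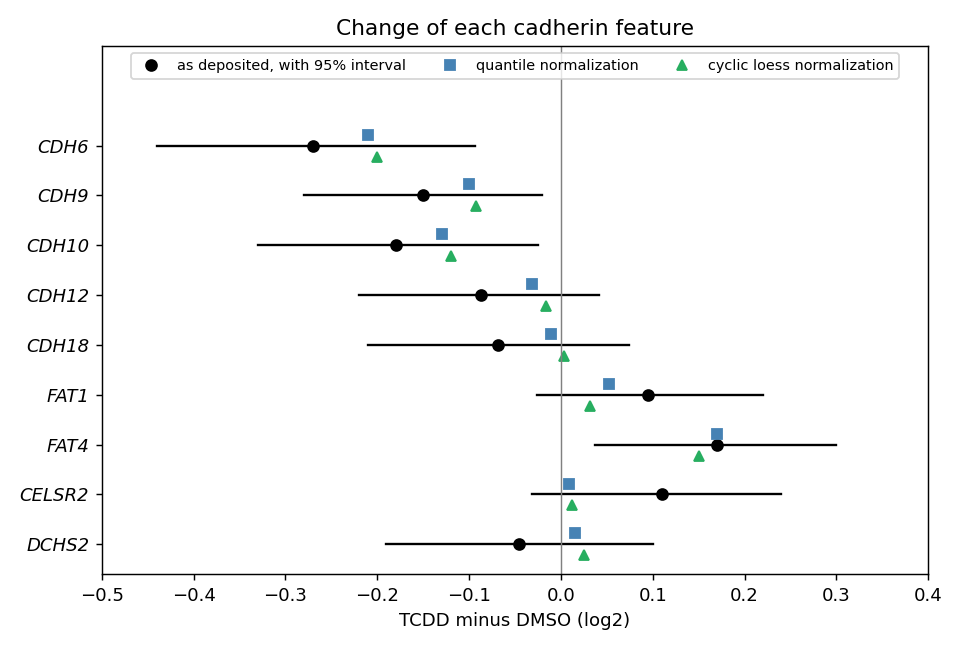
Difference between TCDD and DMSO means (log2) of each cadherin feature. Black points and lines give the deposited values with 95% intervals, blue squares the difference after quantile normalization and green triangles that after cyclic loess. CDH6 and FAT4 stay at -0.20 or beyond and at 0.15 or above in all 3, while CELSR2 moves close to 0.

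Over the signals at which the members lie, about 6 to 10, changes ran from lower in TCDD for dim features to higher for bright ones. In the adjoining ranges the medians were -0.061 between 5 and 6 and 0.125 between 10 and 11. Farther out the order did not hold over all features, with medians of 0.016 between 4 and 5 and 0.052 between 12 and 13. The 12 protein-coding features between 4 and 5 had a median of -0.089. The 6 members at a mean signal between 6 and 7, the type II cadherins and DCHS2, all had a lower mean in TCDD. So did most of the 1886 features in that range, where the median change was -0.066, 32.7% were higher in TCDD and 17.3% were called. Of the 408 protein-coding features there, 18.6% were higher in TCDD and 10.0% were called, with a median change of -0.083. FAT4 and FAT1 lay between 8 and 9, where the median change of 3278 features was 0.009, with FAT1 at 8.94 near the upper end of that range. CELSR2 lay between 9 and 10, where the median change was 0.114 and 81.0% of 2472 features were higher in TCDD. The differences of CELSR2 (0.11), CDH18 (-0.068), CDH12 (-0.087) and DCHS2 (-0.046) lay near the median of their range. Those of CDH9 (-0.15), CDH10 (-0.18) and FAT1 (0.095) lay farther from it, and those of CDH6 (-0.27) and FAT4 (0.17) farthest.

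**Figure D3:**
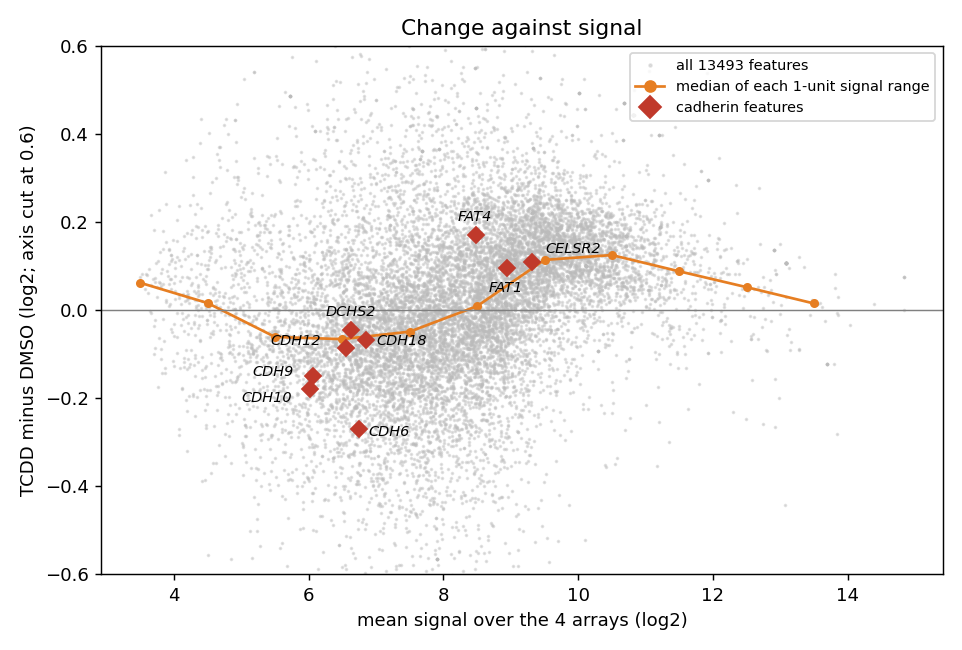
Difference between TCDD and DMSO means (log2) against the mean signal over the 4 arrays (log2). Grey points are all 13493 features, of which 209 lie beyond the axis limit of 0.6, the orange line joins the medians of signal ranges 1 unit wide, and red diamonds are the 9 cadherin features. CDH6 lies below and FAT4 above the medians of their ranges.

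Cyclic loess normalization, which removes differences between arrays that depend on signal, left CDH6 at -0.20 (SE 0.050, limma adjusted p = 0.0644) and FAT4 at 0.15 (SE 0.045, limma adjusted p = 0.0836). CDH10 was -0.12 (adjusted p = 0.115) and CDH9 -0.093 (adjusted p = 0.155) after it. CELSR2 (0.012), FAT1 (0.032), CDH12 (-0.016), CDH18 (0.0033) and DCHS2 (0.025) lay close to 0, the last pair with the opposite sign from the deposited values. Quantile normalization gave -0.21 for CDH6, 0.17 for FAT4, 0.0093 for CELSR2 and 0.052 for FAT1. After cyclic loess CDH6 read 6.67 and 6.64 in TCDD, against 6.79 and 6.90 in DMSO, and FAT4 read 8.57 and 8.54 in TCDD, against 8.36 and 8.44 in DMSO. After cyclic loess the groups of CDH6, CDH9, CDH10, FAT1 and FAT4 were apart, and those of the other 4 members overlapped. The nearest arrays of FAT1 then read 8.95 in TCDD and 8.94 in DMSO. In the deposited values 71.7% of all features had groups apart. That share was not computed after cyclic loess, so the count of members has no baseline.

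As a mark of dim features, 95% of the 71 olfactory receptor features, genes known mainly from the nasal epithelium, lay under a mean signal of 8.38. The 5 type II cadherins and DCHS2 lay under it, at 6.02 to 6.85, as did 31.9% of protein-coding features. Their signals fell between percentiles 2.20 and 8.38 of protein-coding features, FAT4 stood at percentile 34.3, FAT1 at 49.8 and CELSR2 at 63.0. Signals of different features depend on their probes and are not RNA levels that can be ranked, but for the type II cadherins and DCHS2 a signal of RNA cannot be told apart from that of olfactory receptor features.

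Other adhesion families of the table gave other counts in the same fit. Where 9.41% of all features rose and 8.01% fell, 16 of 35 protocadherin features rose and 0 fell, with a median change of 0.169 and signals from 4.93 to 10.52. Of 9 integrin subunit features 3 rose and 0 fell, with a median change of 0.181. The difference between these families and the cadherins was not tested. Further superfamily genes outside the list, named after their values were seen, did not pass either, namely FAT2 (-0.11, limma adjusted p = 0.161), the calsyntenins CLSTN1 (0.094, adjusted p = 0.265) and CLSTN2 (-0.034, adjusted p = 0.621), and CDHR4 (-0.071, adjusted p = 0.313). FAT2 read 7.81 and 7.83 in TCDD, against 7.93 and 7.92 in DMSO, and lay, unlike FAT1 and FAT4, under the olfactory receptor level, in a range of signals with a median change of -0.049.

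Genes that act with cadherins at the cell membrane were examined as a list of 29 catenins, nectins, polarity proteins and proteases that cleave cadherins. Of the 13 measured, 2 rose and 0 fell, where 9.41% of all features rose and 8.01% fell, and the median change was 0.064. NCSTN, which encodes the nicastrin subunit of gamma-secretase, read 9.80 and 9.83 in TCDD, against 9.61 and 9.55 in DMSO (0.24, SE 0.053, limma adjusted p = 0.0341). CTNNB1, which encodes beta-catenin, read 11.17 and 11.20 in TCDD, against 11.01 and 10.95 in DMSO (0.21, SE 0.053, limma adjusted p = 0.0471). CTNNA1, which encodes alpha-catenin, differed by 0.17 (limma adjusted p = 0.0748). Neither rise was called after quantile normalization (NCSTN 0.11, CTNNB1 0.089) or cyclic loess (NCSTN 0.12, CTNNB1 0.089), nor without DMSO replicate 2 or either TCDD array (0.17 to 0.26). With array weights CTNNB1 was not called (adjusted p = 0.0579).

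Of 12 measured planar cell polarity genes, the pathway of the CELSR proteins, 0 passed and 5 had an unadjusted limma p under 0.05, where 39.5% of all features did. Their median change was 0.103. The smallest p belonged to the Wnt receptor FZD7, which read 9.86 and 9.93 in TCDD, against 9.76 and 9.54 in DMSO (0.24, SE 0.082, limma adjusted p = 0.0845). The Wnt co-receptor RYK differed by 0.18 (adjusted p = 0.0877) and INTU, a planar polarity effector of ciliogenesis, by 0.15 (adjusted p = 0.0978). The TCDD arrays lay above the DMSO arrays for 9 of the 12 genes and below for 0, where 40.7% of all features and 53.2% of protein-coding ones lay above. The median signal of the list was 9.61, in a range where 88.4% of protein-coding features had a higher mean in TCDD.

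Of 13 measured Hippo pathway genes 1 rose and 1 fell, near the shares of all features (9.41% and 8.01%), and the median change was 0.083. PTPN14, a phosphatase that binds YAP, read 9.53 and 9.55 in TCDD, against 9.35 and 9.34 in DMSO (0.19, SE 0.050, limma adjusted p = 0.0495). RASSF5, a partner of the MST kinases, read 8.35 and 8.36 in TCDD, against 8.53 and 8.61 in DMSO (-0.21, SE 0.055, limma adjusted p = 0.0456). MOB1B, a cofactor of the LATS kinases, differed by 0.21 (adjusted p = 0.0548). After cyclic loess RASSF5 was still called (-0.23, adjusted p = 0.0422) and PTPN14 was not (0.087, adjusted p = 0.208). With array weights neither was called (RASSF5 adjusted p = 0.0533, PTPN14 adjusted p = 0.0627), and PTPN14 was not with a replicate block (adjusted p = 0.0572). Both calls were also lost without DMSO replicate 2 (PTPN14 0.18, RASSF5 -0.17), TCDD replicate 1 (0.20 and -0.20) or TCDD replicate 2 (0.18 and -0.22).

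Among 8 listed transcription factors that switch cadherin expression or mark mesenchymal cells, 2 were measured. Of these 1 rose and 0 fell, where 9.41% of all features rose and 8.01% fell. The gene that rose was PRRX1, a mesenchymal homeobox factor, at 9.43 and 9.47 in TCDD, against 9.18 and 9.20 in DMSO (0.26, SE 0.051, limma adjusted p = 0.0259). It lay at signals between 9 and 10, where 81.0% of all features had a higher mean in TCDD and 12.9% were called higher. The call was lost after cyclic loess (0.17, adjusted p = 0.0834), after quantile normalization (0.16), and without DMSO replicate 2 (0.27) or either TCDD array (0.24 to 0.28). TWIST2 differed by -0.20 (adjusted p = 0.0633).

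**Figure D4:**
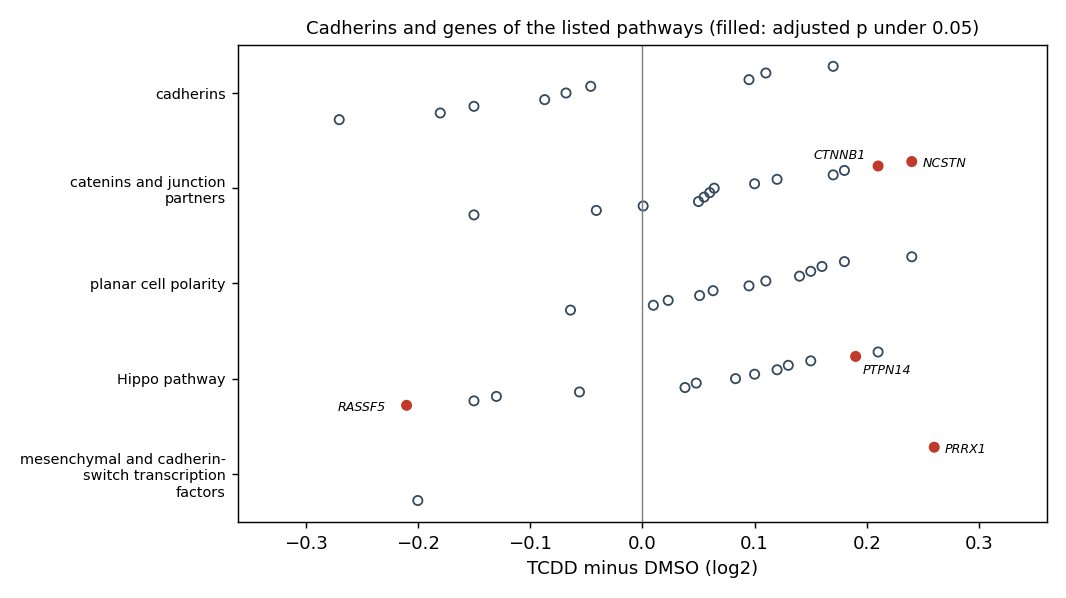
Difference between TCDD and DMSO means (log2) of the 9 cadherin features and of the measured genes of each list, 1 point a gene, spread vertically only to separate them. Filled points passed an adjusted p under 0.05. No cadherin is filled, and planar cell polarity genes lie mostly to the right of 0.

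Arrays of a group correlated at 0.999 (TCDD) and 0.997 (DMSO) across features, and arrays of different groups at 0.989 to 0.994. Of markers for the labelled tumour type, the 6 measured noradrenergic genes, HAND2, GATA2 and ISL1 among them, had mean signals from 9.54 to 11.54, and the 4 mesenchymal-type genes from 8.50 to 12.15. The 3 measured immune markers (6.18 to 7.77), KDR of endothelium (7.08) and the epithelial genes EPCAM and CLDN1 (7.52 and 7.90) were all under the olfactory receptor level.

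These markers also differed between the groups, and their part in the cadherin differences was not tested. Averages over their genes are given with the lower array of each group first, not by replicate number. Noradrenergic markers read 10.93 and 10.94 on the TCDD arrays, against 10.81 and 10.91 on the DMSO arrays. Mesenchymal-type markers read 10.17 and 10.19 in TCDD, against 9.98 and 9.99 in DMSO. Of the noradrenergic genes 1 of 6 rose, HAND1 (0.22, limma adjusted p = 0.0486), and of the mesenchymal-type genes 3 of 4, PRRX1, TGFBR2 (0.22, adjusted p = 0.0343) and NOTCH2 (0.23, adjusted p = 0.0477), where 9.41% of all features rose. At signals between 9 and 10, where PRRX1 lay, a share of 81.0% of all features had a higher mean in TCDD. That share was 91.0% between 10 and 11, where HAND1 and NOTCH2 lay, and 52.5% between 8 and 9, where TGFBR2 lay. After cyclic loess TGFBR2 was still called (0.20) while HAND1 (0.095), NOTCH2 (0.10) and PRRX1 were not. The 3 immune markers averaged 6.93 to 6.95 in TCDD, against 7.08 to 7.19 in DMSO. All 3 lay below in TCDD, as the type II cadherins CDH6, CDH9, CDH10 and CDH12 did, where 30.9% of all features lay below. These genes are dim, and only 32.7% of all features between 6 and 7 and 37.1% between 7 and 8 had a higher mean in TCDD. FCGR3A, an Fc receptor, fell by 0.29 (limma adjusted p = 0.0249), where 8.01% of all features fell, and PTPRC and CD2 did not pass. With array weights HAND1 (adjusted p = 0.0547) and NOTCH2 (adjusted p = 0.0533) were not called. None of HAND1, TGFBR2, NOTCH2 and FCGR3A was called without DMSO replicate 2 or without either TCDD array.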

How the data were processed

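The authors deposited log2 signals. The submitters' processing notes name RMA, and its version or settings are not given in the sources used here. The analysis covered 13493 features with identifiers of chromosomes 1 to 5. Of these, 6647 had 1 gene symbol in the platform annotation, 341 had several and 6505 had none here. Symbols were updated through RefSeq names (GRCh38.p14), 5930 by Entrez identifier, 618 as current symbols and 97 by synonym, with 2 kept as given.

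Groups came from the sample titles. Each feature was fitted with limma 3.58.1 in R 4.3.3 (lmFit and eBayes, no block, no filter), and two-sided p-values were adjusted over all features. Changes are TCDD minus DMSO. For lists, a gene was taken by its feature with the highest mean. All cadherin features are named, and of each pathway list every called gene, with the smallest p-values added to make up to 3. Called marker genes were named after their values were seen. Members and lists were chosen with earlier results of these data known. The functions were tested on simulated arrays. Alternatives were a replicate block, quantile, cyclic loess and median normalization, removal of dim features, other variance models, identical features counted once, annotated features alone, and each array left out. Arrays of the same replicate number did not deviate together (correlation of deviations 0.0373). Precision is limited by having 2 arrays in each group.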

Additional observations from a re-analysis of the deposited data

How the results depend on the processing

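Of 114 alternative values of single cadherins, 103 kept their direction and their side of the threshold, 7 passed it and 4 turned. CDH6 passed in 4 alternatives (replicate block, median centring, annotated features alone, without DMSO replicate 1), FAT4 with annotated features alone, and CDH9 and CDH10 without DMSO replicate 1. CDH18 turned after cyclic loess (0.0033), and DCHS2 after quantile normalization (0.015), after cyclic loess (0.025) and without DMSO replicate 2. The difference of DCHS2 ranged from -0.11 to 0.016 over the arrays left out. Median centring called 2505 of all 13493 features, against 2351 in the main fit, and the fit of annotated features alone called 1799 of 6647. Whether the cadherin counts of a setting differ from its share of all features was not tested. The 0 cadherin calls became 1 with the replicate block, 1 with median centring, 2 with annotated features alone and 0 to 3 with 1 array left out. Without DMSO replicate 1 there were 3. Calls over all features, 2351, became 3634 with the replicate block, 1478 after quantile normalization and 644 (without DMSO replicate 2) to 4661 (without DMSO replicate 1) with 1 array left out, and 1138 without TCDD replicate 1. The 4 calls among 38 genes of the junction, planar polarity and Hippo lists became 1 after quantile normalization, 1 after cyclic loess and 0 to 15 with 1 array left out (15 without DMSO replicate 1). With alternatives chosen after seeing the data they became 1 with array weights, where NCSTN kept its call, and 5 with the replicate block. The samples share only a replicate number, so the block adds no pairing known from the labels; under it CDH6 had a limma adjusted p of 0.00415. The block, and leaving out a TCDD array, made limma give each cadherin the same SE (0.078 with the block, 0.11 without a TCDD array). With the dimmest 25% or 50% of features left out, the 5 type II cadherins and DCHS2 gave no value, since all lay in the removed part. Other causes of these shifts were not tested.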
